A study of Glycine max with 11 samples.

Results

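The count table of 56044 soybean genes held 7 genes of small heat shock proteins that are described here, all of them found by their identifiers. They comprised 3 class II genes (Glyma.17G224900.1, Glyma.14G099900.1 and Glyma.14G100000.1), 2 class I genes (Glyma.07G200700.1 and Glyma.13G176200.1) and 2 genes whose best Arabidopsis match is HSP21 (Glyma.08G318900.1 and Glyma.06G134900.1), which are written below without the transcript suffix. The names come from the study's gene tables, which call the class II proteins 17.9 kDa and the class I proteins 17.5 kDa heat shock proteins. The genes were chosen by identifier because the study singled them out as heat shock protein genes that rose late in maturation along with seed longevity. Their values at stage 9 and at stage 7.2, fresh and dried, and their pattern in fresh seeds therefore entered the choice. All values of these genes are given below as a description: fold changes and their standard errors come from a fit over all genes, and where genes are said to be past its thresholds, the choice bears on that count and it is no independent evidence.

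Whole seeds of soybean (Glycine max cv. BRS284), harvested at late stages of seed maturation, were sequenced in 11 libraries. Fresh seeds, frozen at harvest, were represented by a single library for stages 7.1, 7.3, 8.1, 8.2 and 8.3 and by 2 for stage 7.2 and for stage 9, the final, mature stage. A further 2 libraries came from seeds harvested at stage 7.2 and then dried fast at 40% relative humidity and 30 °C to a moisture content of 10%. All groups shared the cultivar and the field, seeds of many plants were pooled at each stage, and stages with 1 library have no replicate check. The libraries held from 12881662 to 60626937 counts, both extremes being dried seeds, and from 34689 to 41253 genes had a count. Whether the 2 replicates of a group came from separate harvests is not in the labels, so p-values measure the spread between these samples only. Oleosins, the proteins of seed oil bodies, served as a check of the tissue that was chosen after the data were seen. Glyma.06G078700 ranged from 3298 to 143826 normalized counts over the 11 libraries, with a median of 20866. Other oleosins were lower: Glyma.04G077600 ranged from 258 to 69175 with a median of 4692.5, and Glyma.20G196600 from 108.5 to 11221 with a median of 236.

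Small heat shock proteins are chaperones built around an alpha-crystallin domain. They assemble into large oligomers and hold unfolding proteins in a soluble state without using ATP, until ATP-dependent chaperones such as HSP70 and HSP101 refold them. Class I and class II proteins work in the cytosol, whereas HSP21 of Arabidopsis works in the chloroplast. In plants they are known for their strong induction by heat through heat shock transcription factors, and for their accumulation in maturing seeds without any heat stress.

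For 3 of the genes the study had designed primer pairs for quantitative PCR, forward and then reverse, each written 5′ to 3′. They are shown because they mark where the study measured these genes in a separate assay. Beside HSP 17.6b the primer list gives Glyma.14G100000, while the description of the PCR assay names Glyma.14G099900. Both genes are described separately below. The PCR measurements were not analysed here.
HSP 17.6a forward, Glyma.17G224900: acgaaagagggacgaaga
HSP 17.6a reverse, Glyma.17G224900: cattctcaggcagcacaa
HSP 17.6b forward, Glyma.14G100000: tgcggatgtgaaggaatatc
HSP 17.6b reverse, Glyma.14G100000: aagcacgttgtcgtcttc
HSP 21 forward, Glyma.08G318900: aacatgctggtggtgaag
HSP 21 reverse, Glyma.08G318900: agggctatcctgtggttat

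During maturation of fresh seeds, transcripts of the 7 genes went from nearly nothing at stage 7.2 to their highest levels at stages 8.3 and 9. At fresh stage 7.2 the mean level of each gene was between 0.115% and 0.455% of its own mean at stage 9. Of the 20063 genes whose average in fresh seeds was 50 normalized counts or more, 0.0947% lay at or under 1% of their stage 9 mean at this stage, and the choice of the genes fixed this property. Levels are deposited read counts divided by DESeq2 size factors over all 11 libraries, called normalized counts below. They are not divided by gene length, so they are compared within a gene and not between genes. Reads of near-identical copies may have been divided between the copies during mapping, which leaves the level of each copy uncertain. In RNA of whole seeds, fewer cells with a transcript and less transcript per cell cannot be told apart.

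Class II proteins form oligomers in the cytosol that are separate from those of class I. In seeds of stages 7.1, 7.3, 8.1, 8.2 and 8.3, Glyma.14G099900 stood at 1.01, 7.88, 17.6, 217 and 938 normalized counts, with 3.39 and 2.05 in the stage 7.2 pair and 2315 and 2438 in the stage 9 pair. Each stage was thus above the one before, but the steps up to stage 8.1 rested on at most 11 counts per library. Their 95% counting intervals all reached below 1 (0.381 to 120.5, 0.896 to 8.54 and 0.79 to 6.79), so no order of adjacent stages can be read there. The largest step of Glyma.14G099900 on the log2(normalized count + 1) scale, 3.55, lay between stages 8.1 and 8.2. Glyma.14G100000, with the next identifier on the same chromosome, stood at 0, 7.88, 28.8, 101 and 275.5 normalized counts, with 2.26 and 6.15 in the stage 7.2 pair and 848 and 998.5 in the stage 9 pair, in the same order of stages. From stage 7.3 onwards this gene rose by a like factor at every stage, between 2.73 and 3.65 times, in contrast with the 12.3-fold step of Glyma.14G099900 from stage 8.1 to stage 8.2, whose 95% counting interval was 6.76 to 25.1. Its largest log2 step fell between stages 7.1 and 7.2 (2.38), and rested on 0 counts against 13.

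Glyma.17G224900 was the last of the 7 genes to appear. It stood at 0 in seeds of stages 7.1, 7.3 and 8.1, at 3.0 and 41.3 normalized counts in those of stages 8.2 and 8.3, at 1.70 and 0 in the stage 7.2 pair and at 176 and 272 in the stage 9 pair. These levels stood for at most 3 counts in every fresh library up to stage 8.2, so that no order among those stages can be read. A total of 3 counts is worth between 1.70 and 4.80 normalized counts in the fresh libraries. It was set as a floor, and levels under it rest on too few counts to be read. From stage 8.2 to stage 8.3 the counts went from 3 to 39, a ratio of 13.8 with a counting interval of 4.38 to 69.6, and from stage 8.3 to stage 9 the level rose another 5.28 times (3.80 to 7.53).

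**Figure D1:**
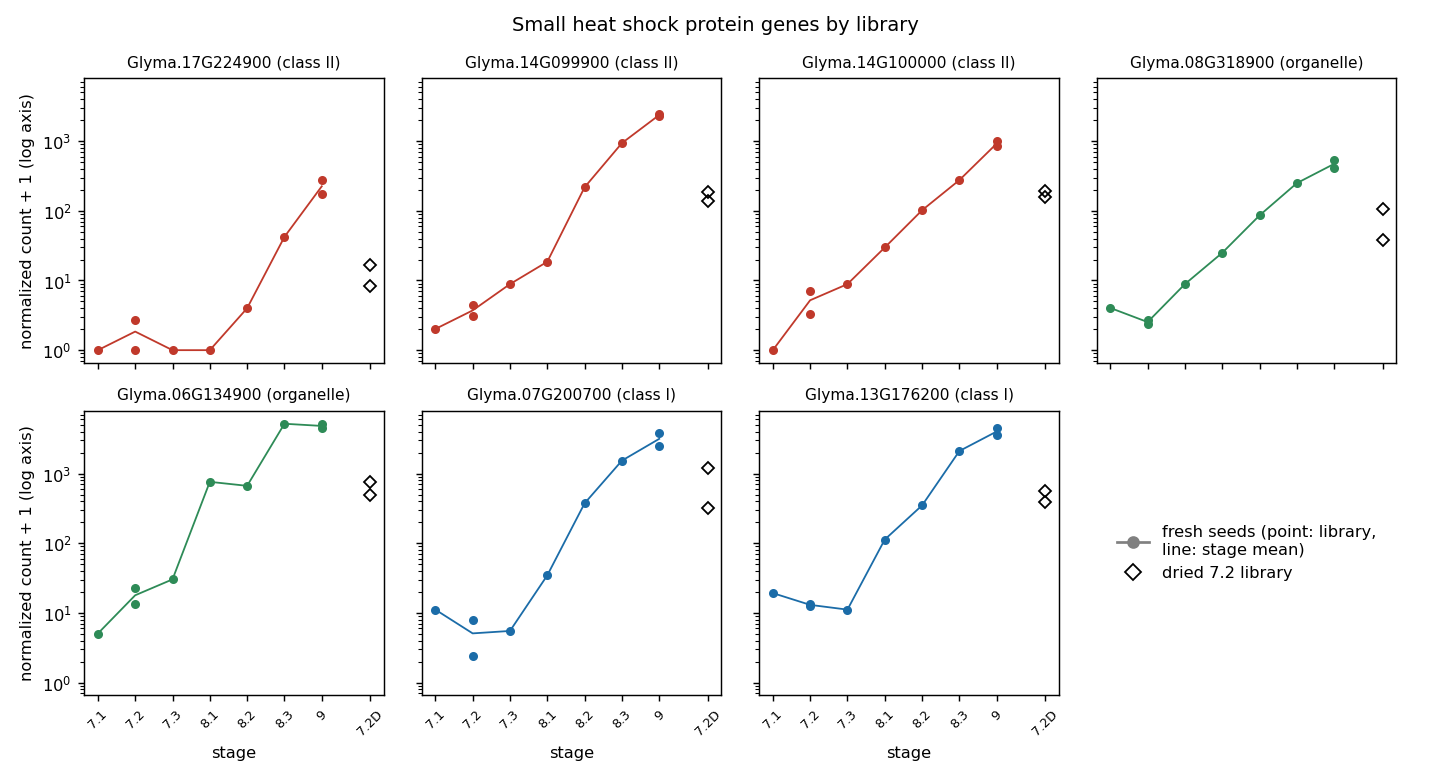
Normalized counts + 1 of the 7 genes on a log axis, for fresh seeds at 7 stages and for dried seeds of stage 7.2 (7.2D). Circles are fresh libraries, lines join the stage means, open diamonds are the 2 dried libraries, and colours mark class II (red), class I (blue) and the genes matching the organelle protein HSP21 (green). Both dried libraries of each gene lie above both fresh libraries of stage 7.2 and below both of stage 9.

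The class I genes encode the most abundant kind of cytosolic small heat shock protein in plants. Through stages 7.1, 7.3, 8.1, 8.2 and 8.3, Glyma.07G200700 stood at 10.1, 4.50, 33.6, 373 and 1532 normalized counts, with 6.79 and 1.37 in the stage 7.2 pair and 2525 and 3777 in the stage 9 pair. Glyma.13G176200 stood, in the same order, at 18.2, 10.1, 112, 348 and 2106 normalized counts, with 12.4 and 11.6 in the stage 7.2 pair and 3566 and 4465 in the stage 9 pair. Neither gene was higher at stage 7.2 or 7.3 than at stage 7.1, and both rose at every later stage. The largest log2 step of Glyma.13G176200 lay 1 stage earlier, between stages 7.3 and 8.1 (3.34), than that of Glyma.07G200700, between stages 8.1 and 8.2 (3.44). In counts, the former step was 11-fold with a counting interval of 5.50 to 25.2 and the latter 11.1-fold with an interval of 7.16 to 18.2. Glyma.07G200700 had also risen 7.46-fold from stage 7.3 to stage 8.1 (2.52 to 29.9), on 4 counts against 21. These intervals overlap, so the order of the largest steps of these genes is uncertain.

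The 2 genes matching HSP21, which in Arabidopsis protects plastid proteins, did not follow each other. For stages 7.1, 7.3, 8.1, 8.2 and 8.3, Glyma.08G318900 stood at 3.04, 7.88, 24.0, 85.0 and 249 normalized counts, with 1.70 and 1.37 in the stage 7.2 pair and 414 and 529.7 in the stage 9 pair. This gene rose at every stage from stage 7.2 onwards. Its first step, 5.09-fold from stage 7.2 to stage 7.3, rested on 5 counts against 7 (counting interval 1.39 to 20.4). Glyma.06G134900 stood at 4.05, 29.3, 759.5, 665 and 5187 normalized counts, with 21.5 and 12.3 in the stage 7.2 pair and 4525 and 5126 in the stage 9 pair. It thus climbed in 2 separate steps, 26.0-fold from stage 7.3 to stage 8.1 (counting interval 17.5 to 40.1) and 7.80-fold from stage 8.2 to stage 8.3 (7.19 to 8.47). Between these steps it stood at 0.876 times its level (0.777 to 0.987). It was the only one of the 7 genes not highest at stage 9, although its level at stage 8.3 exceeded the higher library of stage 9 by less than the 2 libraries of stage 9 differed.

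Relative to its own stage 9 mean, Glyma.06G134900 was the first gene to reach 10%, at stage 8.1 (15.7%). Glyma.14G100000 (10.9%), Glyma.08G318900 (18.0%) and Glyma.07G200700 (11.8%) reached it at stage 8.2. Glyma.14G099900, Glyma.13G176200 and Glyma.17G224900 passed it at stage 8.3, the first 2 of these standing close to it at stage 8.2 with 9.13% and 8.67%. A level of 50% was reached at stage 8.3 by Glyma.06G134900 (107%), Glyma.08G318900 (52.8%) and Glyma.13G176200 (52.5%), and only at stage 9 by the other 4. The class I gene Glyma.07G200700, with 48.6% at stage 8.3, differed little from the last 2, and all of these single-library stages lack a replicate. At stage 8.3 the 3 class II genes stood lowest, with 39.5% for Glyma.14G099900, 29.8% for Glyma.14G100000 and 18.4% for Glyma.17G224900. This order did not hold at stage 8.2, where Glyma.14G100000 (10.9%) and Glyma.14G099900 (9.13%) stood above the class I gene Glyma.13G176200 (8.67%). Among the 20063 genes of this level, 0.832% first reached 50% of their stage 9 mean at stage 8.3 or 9, 12.3% were highest at stage 9 and 14.7% at stage 8.3.

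**Figure D2:**
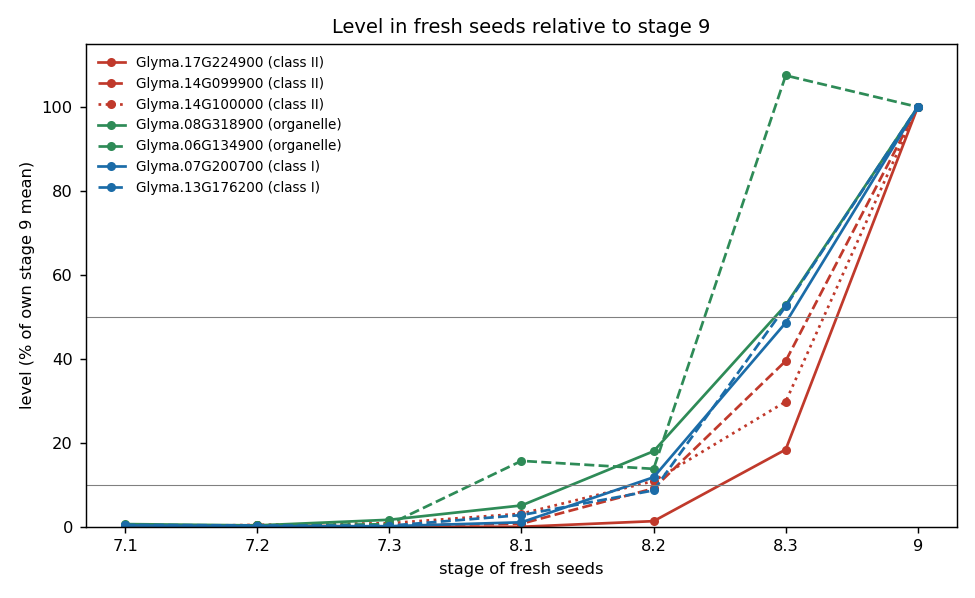
Level of each gene in fresh seeds as percent of its own stage 9 mean, with replicates averaged at stages 7.2 and 9 and 1 library at each other stage. Horizontal lines mark 10% and 50%. Glyma.06G134900 (green, dashed) leads with 15.7% at stage 8.1 and 107% at stage 8.3, and the class II genes (red) trail with 18.4% to 39.5% at stage 8.3.

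The largest log2 step depended on low counts for some genes. With a pseudocount of 1, the steps were spread over 5 intervals: 2 genes had theirs between stages 7.3 and 8.1 and 2 between stages 8.1 and 8.2, while Glyma.14G100000, Glyma.08G318900 and Glyma.17G224900 had theirs in other intervals. With a pseudocount of 5, that of Glyma.14G100000 moved to the interval from stage 8.3 to stage 9 and that of Glyma.08G318900 to stages 8.1 to 8.2, while the other 5 genes kept theirs. Over the 20063 genes, 16.4% had their largest step between stages 7.3 and 8.1 and 11.1% between stages 8.1 and 8.2.

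The comparison of stage 9 with fresh stage 7.2 asked which transcripts separate mature from immature seeds, and the 7 genes had been picked on it. All 7 exceeded fresh stage 7.2 in both mature libraries, by 7.75 to 9.67 on the log2 scale with a median of 8.14 (n = 2 libraries per group). Of the 29707 genes tested, 17.8% were called higher and 41.2% were higher in both libraries without overlap. The call required at least a 2-fold change and an adjusted p under 0.05 from edgeR's quasi-likelihood test. The fold change was 9.67 (standard error 0.172) for Glyma.14G099900 and 9.46 (0.319) for Glyma.07G200700. Because the libraries of fresh stage 7.2 held few counts, the size of these changes is loosely fixed. Without replicate 1 of fresh stage 7.2 the log2 fold change of Glyma.07G200700 became 11.04 and that of Glyma.17G224900 10.98 in place of 7.75, and without replicate 2 they became 8.81 and 6.92. That of Glyma.14G100000, 7.79 with all 4 libraries, became 7.18 without replicate 1 and 8.59 without replicate 2. The pooled counts of Glyma.17G224900, 3 against 432, gave a 235-fold ratio with a counting interval of 79.9 to 1145.

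After enforced drying of stage 7.2 seeds, 6 of the 7 genes were past both thresholds on the higher side, and the remaining gene, Glyma.17G224900, had too few counts to enter the edgeR fit. The study also used this comparison when it singled out genes of the heat response. It thus cannot be held apart from the choice of the genes. All of its libraries were shared with the other comparisons of the choice, and the genes had been chosen with low levels in the fresh ones. For these reasons no p is given. Of the 30132 genes tested, 15.0% were called higher and 2.2% were called at a log2 fold change of 3 or more, and nothing is read from the genes' count beside these shares. Each of the 6 had a log2 fold change above 5, and the median over all genes tested was -0.05. In both dried libraries the level of every one of the 7 genes was above that in both fresh libraries of the same stage, as it was for 33.9% of all genes tested.

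The class II gene Glyma.14G099900 had 187 and 135 normalized counts in the dried libraries against 3.39 and 2.05 in the fresh ones, 5.81 ± 0.388 on the log2 scale (fold change ± SE). Glyma.14G100000 had 191 and 156 against 2.26 and 6.15, 5.40 ± 0.420 on the log2 scale (fold change ± SE). The log2 fold changes of the copies on chromosome 14 differed by less than the sum of their standard errors, and their order turned without replicate 2 of the fresh seeds. Without replicate 1 they were 6.23 for Glyma.14G099900 and 4.81 for Glyma.14G100000, and without replicate 2 they were 5.53 and 6.21. Glyma.17G224900 had 15.8 and 7.42 normalized counts in dried seeds, from 8 and 13 counts, against 1.70 and 0, from 3 and 0 counts. Pooled over libraries this is a 10.0-fold ratio with a counting interval of 2.99 to 52.4. DESeq2, which kept this gene, gave a log2 fold change of 3.69.

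Among the class I genes, Glyma.13G176200 had 390.5 and 559.7 normalized counts after drying against 12.4 and 11.6, 5.32 ± 0.302 on the log2 scale (fold change ± SE). Glyma.07G200700 had 316 and 1208 against 6.79 and 1.37, 7.49 ± 0.933 on the log2 scale (fold change ± SE). Its fold change was the highest of the 6 and had the largest standard error. The 2 dried libraries differed 3.83-fold from each other, and the 2 fresh ones held only 12 and 2 counts. Without replicate 1 of the dried seeds it was 8.13, without replicate 2 it was 6.18, without replicate 1 of the fresh seeds it was 9.05, and without replicate 2 of the fresh seeds it was 6.82.

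Of the genes matching HSP21, Glyma.06G134900 had 493 and 747 normalized counts in dried seeds against 21.5 and 12.3, 5.20 ± 0.381 on the log2 scale (fold change ± SE). Glyma.08G318900 had 37.5 and 106 against 1.70 and 1.37, 5.58 ± 0.708 on the log2 scale (fold change ± SE). The latter rested on 3 and 2 counts in the fresh libraries, and the pooled counts gave a 58.6-fold ratio with an interval of 24.7 to 182.5. Without replicate 2 of the dried seeds its log2 fold change was 4.53. The dried libraries had 12881662 counts in replicate 1 and 60626937 in replicate 2, and 4 of the 7 genes had the higher normalized count in replicate 2. The part of depth in the spread between the dried replicates was not tested.

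**Figure D3:**
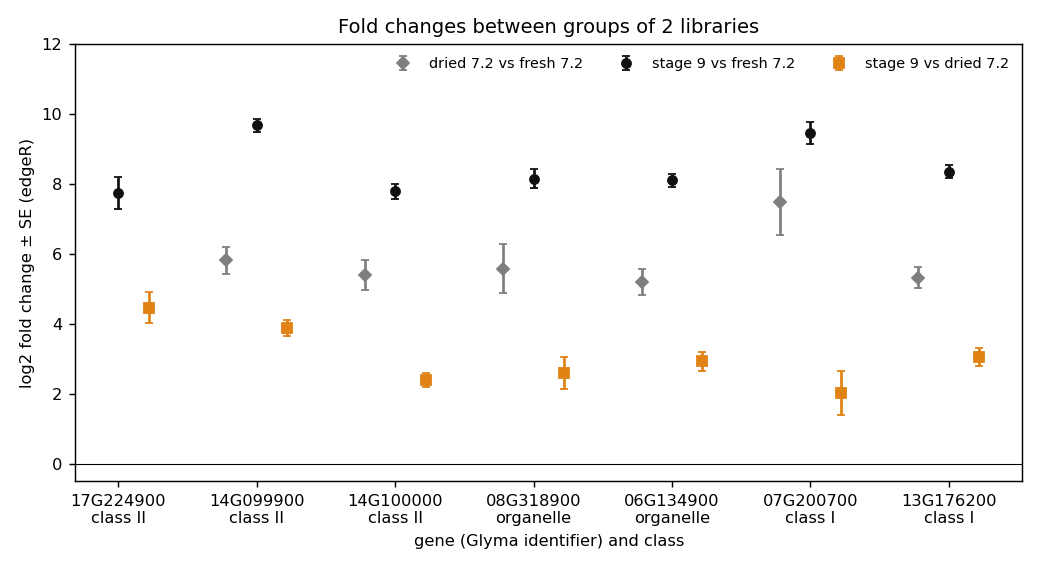
edgeR log2 fold changes with standard errors for the 7 genes in the 3 comparisons, each between groups of 2 libraries. Grey diamonds are dried against fresh stage 7.2, black circles stage 9 against fresh stage 7.2, and orange squares stage 9 against dried stage 7.2. The black circles lie between 7.75 and 9.67, the grey diamonds between 5.20 and 7.49 with none for Glyma.17G224900, and the orange squares between 2.01 and 4.46.

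Dried seeds of stage 7.2 nevertheless stayed far below mature seeds for these genes, the second comparison on which they had been listed. As a share of the stage 9 mean, the mean of the dried libraries was 5.18% for Glyma.17G224900, 6.79% for Glyma.14G099900, 11.8% for Glyma.13G176200, 12.9% for Glyma.06G134900, 15.2% for Glyma.08G318900, 18.8% for Glyma.14G100000 and 24.2% for Glyma.07G200700. The 2 lowest shares belonged to class II genes, but the third class II gene, Glyma.14G100000, stood near the top. The dried replicates of neighbours in this order overlapped, except those of Glyma.14G099900 and Glyma.13G176200. The shares of Glyma.07G200700 were 10.0% and 38.4% in the 2 dried libraries, so its place at the top rests on replicate 2.

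In log2 fold change, stage 9 exceeded dried stage 7.2 by 2.01 to 4.46 with a median of 2.94, and 6 of the 7 genes were past both thresholds, where 2.76% of the 25797 genes tested were called higher. The genes had been listed on this comparison, so nothing is read from that count. Both stage 9 libraries exceeded both dried libraries for all 7, and for 31.7% of the genes tested. The fold change was 4.46 (standard error 0.441) for Glyma.17G224900, 3.88 (0.238) for Glyma.14G099900, 3.05 (0.270) for Glyma.13G176200 and 2.94 (0.274) for Glyma.06G134900. It was 2.59 (0.457) for Glyma.08G318900, 2.40 (0.205) for Glyma.14G100000 and 2.01 (0.632) for Glyma.07G200700, the gene that was not past the thresholds. All 7 were past them with DESeq2, without a low-count filter, with all 11 libraries in 1 fit and with the replicate block. For the same reason, nothing is read from these counts either. Of Glyma.07G200700 the dried replicates decide the value, 1.38 without replicate 1 and 3.30 without replicate 2. Without dried replicate 2, the value of Glyma.08G318900 became 3.62 and that of Glyma.17G224900 3.78. The edgeR calls of this comparison were lost for all genes when either stage 9 replicate was left out. The log2 fold changes of the 7 genes were then 2.29 to 4.70 without replicate 1 and 1.72 to 4.09 without replicate 2.

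Set against the course of fresh seeds, enforced drying brought the genes to levels of different stages. In both dried libraries Glyma.14G099900 lay between its levels at stages 8.1 and 8.2, whereas Glyma.14G100000, Glyma.13G176200 and Glyma.17G224900 lay between their levels at stages 8.2 and 8.3. For Glyma.08G318900 and Glyma.07G200700, replicate 1 lay between stages 8.1 and 8.2 and replicate 2 between stages 8.2 and 8.3. Glyma.06G134900, with 493 and 747 normalized counts, was below its level of 759.5 at stage 8.1 in both. In replicate 2 it was above its lower level of 665 at stage 8.2. These fresh stages had 1 library each, and some gaps were small. Glyma.13G176200, for instance, had 390.5 in replicate 1 against 348 at stage 8.2.

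The copies Glyma.14G099900 and Glyma.14G100000 stood in another ratio after drying than after maturation. In dried seeds Glyma.14G099900 had 0.979 (95% counting interval 0.730 to 1.31) and 0.865 (0.724 to 1.03) counts per count of Glyma.14G100000. At stage 9 it had 2.73 (2.53 to 2.94) and 2.44 (2.26 to 2.65), so that the 2 groups did not overlap. In fresh seeds the ratio was 0.611 (0.261 to 1.37) at stage 8.1, 2.15 (1.69 to 2.75) at stage 8.2 and 3.40 (2.96 to 3.92) at stage 8.3. Up to stage 8.1 the counts of both genes were too low to tell the ratio from 1. The intervals cover counting error only, the ratios carry no test, and 2 libraries against 2 would not allow one to pass a threshold of 0.05 by permutation.

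**Figure D4:**
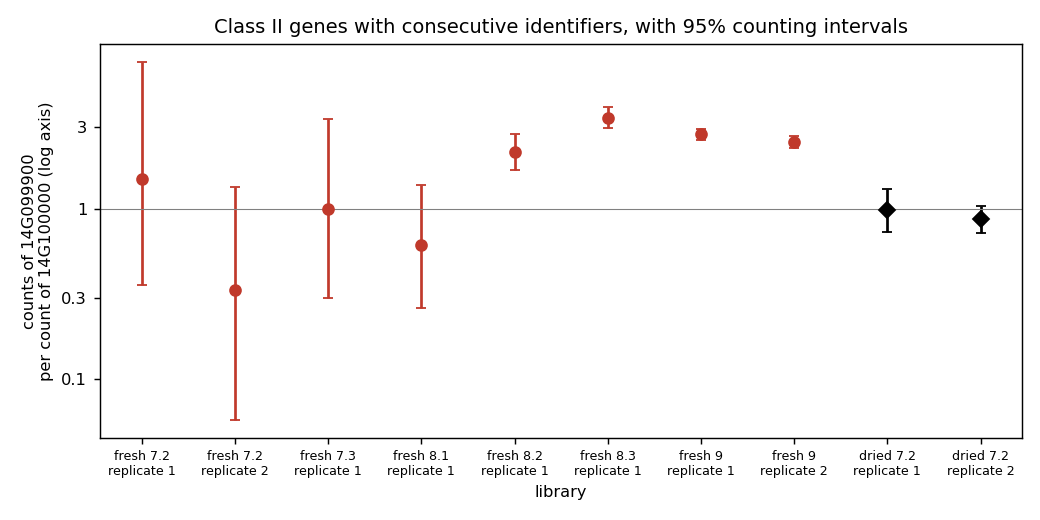
Counts of Glyma.14G099900 per count of Glyma.14G100000 in each library on a log axis, with 95% counting intervals. Red circles are fresh libraries and black diamonds dried libraries of stage 7.2, and stage 7.1 is left out because Glyma.14G100000 had 0 counts there. The ratio is 0.979 and 0.865 in dried seeds and between 2.15 and 3.40 from stage 8.2 to stage 9.

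The study's table of genes that differed between stage 9 and dried stage 7.2 held 26 small heat shock protein genes, the 7 among them. That table was chosen on these libraries, the dried ones among them. Neither its direction at stage 9 nor its count on drying is therefore independent evidence. On drying, 23 of the 25 genes tested were called higher and 0 lower, with a median log2 fold change of 4.61 (edgeR, and 0 were lower at an unadjusted p under 0.05 or with DESeq2). Over all genes tested in this comparison, 15.0% were called higher and 17.9% lower. Of the 19 genes other than the 7, 17 were called higher, with a median of 3.36 against 5.48 for the 6 tested here. The 2 that were not called were Glyma.02G244300, with a log2 fold change of 0.84, and Glyma.02G288700, with 0.27. The 7 had been chosen with low levels in fresh seeds of stage 7.2, which bears on the higher median of the 6. Between stage 9 and fresh stage 7.2, 25 of the 26 were called higher, with a median of 5.95, where 17.8% of all genes tested were called higher. Between stage 9 and dried stage 7.2, 16 were called higher and 1 lower, against 2.76% and 5.02% of all genes tested, with a median of 1.89, and at an unadjusted p under 0.05 the numbers were 25 and 1. Without replicate 1 or replicate 2 of stage 9, edgeR called 0 of the 26 in this comparison, with 24 and 22 higher at an unadjusted p under 0.05, whereas 21 and 25 were called higher without replicate 1 or 2 of the dried seeds.

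As a share of its own stage 9 mean, the fresh level at stage 7.2 was between 0.408% and 51.3% for the 19 others, with a median of 1.94%, against a median of 0.325% for the 7. The dried level was between 17% and 601% for the 19, with a median of 30.6%, against 12.9% for the 7. At stage 8.2 the medians were 24.1% and 10.9%, and at stage 8.3 they were 72.9% and 48.6%. The medians of the 7 genes were thus the lower ones, although the ranges overlapped at each of these points, and the choice bore directly on this.

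**Figure D5:**
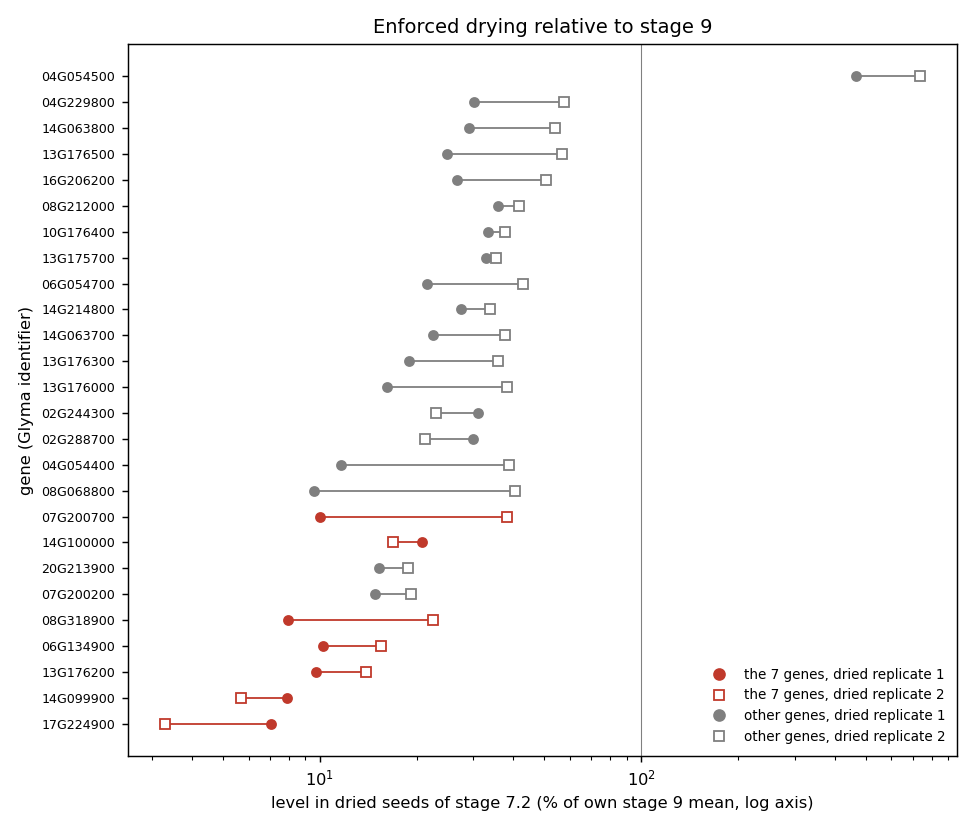
Level in the 2 dried libraries of stage 7.2 as percent of each gene's own stage 9 mean, on a log axis, for the 26 small heat shock protein genes of the study's table. Filled circles are replicate 1 and open squares replicate 2, red for the 7 genes and grey for the others, and the vertical line marks 100%. The means of the 7 lie between 5.18% and 24.2%, and only Glyma.04G054500 lies above 100%.

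Glyma.04G054500 was the exception within the list. It had 63.9 and 57.4 normalized counts in fresh and 550.2 and 868 in dried seeds of stage 7.2, but 106 and 129.8 at stage 9. It was called higher on drying, with a log2 fold change of 3.57, and lower at stage 9 than in dried seeds, by a log2 fold change of -2.61, where 5.02% of all genes tested were called lower. Its neighbour by identifier, Glyma.04G054400, had 46.4 and 32.8, then 513 and 1709.8, and 3985 and 4819 normalized counts in the same groups.

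The 5 genes of the list with the highest mean over the 11 libraries, apart from the 7, were already present before drying. Glyma.08G212000, named in the study's table as a heat shock protein with an HSP20-like match, had 2223 and 1942 normalized counts in fresh stage 7.2 seeds, 11518 and 13418 in dried seeds and 32857 and 31567 at stage 9. Glyma.14G063700, an HSP18.1 gene, had 2861 and 3303, then 6842 and 11500.2, and 29192 and 31755. Glyma.14G063800, a class I gene, had 2010.5 and 2275, then 7354 and 13662, and 23087 and 27536. On drying these 3 rose by a log2 fold change of 2.60, 1.59 and 2.32, less than any of the 6 genes tested among the 7. Both the choice of the 7 and the selection of these 3 by their high mean bear on this difference. The call of Glyma.14G063700 was lost without either fresh replicate of stage 7.2, at log2 fold changes of 1.49 and 1.70. A pair of class I genes completes the 5: Glyma.13G175700 went from 158 and 142 to 4104 and 4409 on drying, and Glyma.07G200200 from 188 and 189.8 to 1452 and 1875, log2 fold changes of 4.84 and 3.16.

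Heat shock transcription factors bind the promoters of small heat shock protein genes. HSFA6b (Glyma.03G157300) had 76.4 and 77.2 normalized counts in fresh stage 7.2 seeds, 168 and 125 in dried seeds and 535 and 533 at stage 9. HSFA3 (Glyma.03G191100) had 134 and 109.9, then 321 and 442, and 355 and 416. The dried libraries of HSFA3 overlapped with those of stage 9, while those of HSFA6b lay below them. Of 12 heat shock factor genes named in the study's tables, 11 were tested on drying, of which 2 were called higher and 1 lower, near the 15.0% and 17.9% of all genes tested. Of 18 genes for larger chaperones in the table of 26, 17 were tested on drying, of which 4 were called higher and 3 lower, against the same shares, with a median log2 fold change of 0.14. Both lists were also chosen by the study on these libraries.

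Over the 7 stages of fresh seeds, with replicates averaged, 20056 genes were set against the mean standardized pattern of the 7 genes. The points share their libraries, and standardizing removes the size of the rise. The highest Pearson r were those of the class I gene Glyma.13G176500 (0.996), Glyma.08G211900 (0.996), Glyma.07G259200 (0.995), Glyma.06G157800 (0.995) and Glyma.16G178800 (0.994), which matches Arabidopsis HSP90.1. Then followed Glyma.08G069000 (0.994), the class I genes Glyma.08G068800 (0.991) and Glyma.13G175700 (0.991), Glyma.01G048700 (0.991), a gene of a RING zinc finger protein, and Glyma.18G233000 (0.9904). Of these 10 genes, 4 belonged to the chaperone lists above, 3 of them class I small heat shock protein genes and the other the HSP90.1 match. Those lists were chosen by the study on these libraries, so nothing is read from this count. The pattern was not shared by the whole list: other small heat shock protein genes ranked from 1 (Glyma.13G176500) down to 8208 (Glyma.04G054500) among the genes compared. The rise behind the like pattern differed widely. Glyma.13G176500 went from 130.1 normalized counts at stage 7.2 to 7676 at stage 9, whereas Glyma.08G211900 went from 576 to 960.5. The 7 genes themselves had an r with their mean between 0.915 (Glyma.17G224900) and 0.993 (Glyma.14G099900).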

How the data were processed

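Single-end reads of 11 whole-seed libraries were mapped by the authors with Bowtie2, and the authors deposited whole-number read counts for 56044 genes without normalization. The counting program is not given in the sources used here. A row without a gene name held 0 counts and was left out. Library totals ranged from 12881662 to 60626937 counts, which limits precision for genes with few counts.

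Counts were compared with edgeR 4.0.16 (R 4.3.3, limma 3.58.1): TMM, filterByExpr, two-sided quasi-likelihood F test, Benjamini-Hochberg adjustment over all genes tested, each comparison on its own 4 libraries. Genes were called at a 2-fold change and an adjusted p under 0.05. Normalized counts used DESeq2 1.42.0 size factors over all 11 libraries, and steps log2(normalized count + 1). Counting intervals are exact (Clopper-Pearson, 95%) and cover counting error only. Python 3.11.15, numpy 2.4.6, pandas 2.3.3, scipy 1.17.1 and matplotlib 3.10.9 served for the rest. The scripts were tested on simulated data.

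The genes and lists were chosen with earlier results of these data known. Genes named are the 7, the 5 other small heat shock protein genes with the highest mean, genes falling where most rise, the 10 most alike, HSFA3 and HSFA6b. Glyma.02G244300, Glyma.02G288700, Glyma.04G054400 and the oleosins were added after their values were seen. Alternatives were DESeq2, its size factors in edgeR, no low-count filter, all 11 libraries in 1 fit, a replicate block, pseudocounts of 0.5 and 5, TMM-scaled counts, and each replicate left out. None of the identifiers matched the 238 locus tags of the gene name table (0), so protein and promoter sequences and storage protein markers were not analysed here.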

Additional observations from a re-analysis of the deposited data

How the results depend on the processing

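No fold change of the 7 genes changed sign under the alternatives run. The order of Glyma.14G099900 and Glyma.14G100000 on drying did turn, as given above. The median log2 fold change of the heat shock factors on drying was 0.22 and became -0.12 without replicate 2 of fresh stage 7.2. On drying, 6 or 7 of the 7 genes were called higher in each alternative: Glyma.17G224900 was added by DESeq2, by the fit without a low-count filter, by that of all 11 libraries and by that without replicate 1 of fresh stage 7.2. Between stage 9 and dried stage 7.2 the number of the 26 small heat shock protein genes called higher was 16, and 25 without a low-count filter. DESeq2 and all 11 libraries in 1 fit gave 24 each. Leaving out 1 replicate gave between 0 and 25 called higher and between 0 and 1 called lower. It was 0 in both directions without replicate 1 or 2 of stage 9, where edgeR called 0 of all genes tested, while 24 and 22 of the 26 were higher and 1 lower at an unadjusted p under 0.05. It was 21 called higher without replicate 1 and 25 without replicate 2 of dried stage 7.2. The cause was not tested, and a lone library is assumed to vary like the other group.

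With the replicate number as a block, 25 of the 26 were called higher at stage 9 than in dried seeds. The labels do not say that a number marks a shared batch, and deviations of same-numbered libraries correlated at 0.0508, 0.0740 and 0.0651 over 28767 genes, so the block is given here only. The 2 genes with their largest step between stages 8.1 and 8.2 became 4 without replicate 2 of fresh stage 7.2, and the number lay between 2 and 4 with 1 replicate left out. With a pseudocount of 5, 6 of the 10 most alike genes remained. Fresh stage 7.2 held at most 38 counts of any of the 7 genes, which limits the size of every fold change against it.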
